A study of Mus musculus with 2 samples.

Results

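The cells described here were capillary endothelial cells of the mouse ileum that were rich in Plvap, the protein of fenestral diaphragms, and that carried transcripts of Adamts4 or Bcr. A cell was taken when it had at least 500 genes and at most 15% mitochondrial counts, at least 5 unique molecular identifiers (UMIs, counts of captured RNA molecules) of Flt1, Cd34, Plvap and Esam together, at most 2 of the lymphatic genes Mmrn1, Lyve1, Reln and Prox1, at most 1 of the venous genes Ackr1, Selp and Madcam1, at most 1 of the arterial genes Sema3g, Fbln5, Stmn2, Gja5 and Bmx, and more Plvap UMIs than Gpihbp1 and Aqp1 UMIs. Of the 2352 cells inside these gates, 1439 had 3 or more Adamts4 and Bcr UMIs in sum and are called Adamts4/Bcr cells. They were 160 of 978 cells that passed the filter in library 1 (16.4%) and 1279 of 6067 in library 2 (21.1%). They were set against the 378 gated cells with 0 UMIs of both genes (64 and 314 cells), called double-negative cells, and 535 gated cells with 1 or 2 UMIs lay between (77 and 458). Cells of the same endothelial and lymphatic gates with 5 or more UMIs of the 3 venous genes and at most 1 arterial UMI, 230 in all (52 and 178), served as venous cells.

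All cells came from 2 droplet-based 3' libraries of small intestine from wild-type male C57Bl/6 mice aged 8 weeks, with no treatment named, which form 1 group (n = 2). Cells negative for EpCAM and CD45 and positive for CD31 were sorted from the ileum as PDPN-negative blood endothelial and PDPN-positive lymphatic endothelial cells, and the labels do not say which gate a cell came from. Nothing in the labels ties either library to its own mouse, so the 2 libraries may differ only technically. A p-value here weighs a difference between classes against the scatter left once the difference between libraries is taken out. That scatter is pooled over all classes of the fit. Each comparison is between classes of cells within both libraries.

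Adamts4 encodes a secreted metalloprotease that cuts proteoglycans such as versican and aggrecan. Bcr encodes a signalling protein best known from its fusion with Abl in leukaemia. Plvap-rich capillaries supply the villus and the crypt region of the gut and let plasma solutes pass through fenestrae, whereas leukocytes leave the blood mainly through post-capillary venules, which carry selectins, Icam1 and Vcam1. Il6 and related cytokines signal through gp130 and STAT3 and induce Socs3, which limits the signal. NF-kB induces its own inhibitors Nfkbia and Tnfaip3 together with cytokines and adhesion genes.

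Library 1 held 1026 barcodes and 3806199 UMIs, and library 2 held 6302 barcodes and 26645476 UMIs. The libraries shared 2 barcodes, neither carried by an Adamts4/Bcr cell. Cdh5, VE-cadherin, an endothelial gene outside the gates, stood at 845 and 710.4 UMIs out of each 1000000 of the class (CPM) in Adamts4/Bcr cells of libraries 1 and 2 and at 958 and 757 CPM in double-negative cells. Since the rule sets a floor on raw UMIs, it also takes deeper cells: medians were 4189 and 4452 UMIs in Adamts4/Bcr cells, 3616 and 5165.5 in venous cells and 2424 and 3346 in double-negative cells. Immediate early genes, which cells also switch on during tissue dissociation, differed too. A core of 10 of them took a median of 1.74 and 1.35% of the UMIs of an Adamts4/Bcr cell, 0.855 and 0.895% of a venous cell and 0.214 and 0.883% of a double-negative cell. Summed levels of 6 marker lists of other cell types (lymphatic, pericyte, fibroblast, epithelial, leukocyte and erythroid) lay between 0 and 42.4 CPM in Adamts4/Bcr cells of library 1 and between 13.5 and 927 CPM in those of library 2, against 0 to 11.5 and 7.32 to 136 CPM in double-negative cells. In library 2 a single Adamts4/Bcr cell held 5542 of the class's 5612 epithelial UMIs, and 8 cells held 10 or more pericyte UMIs, so counts without such cells are given below.

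Most gated cells passed the rule, and most of them passed through Bcr. Adamts4/Bcr cells were 53.2% of the gated cells of library 1 (95% Clopper-Pearson interval 47.3 to 58.9%) and 62.4% of those of library 2, and intervals cover counting error only. Of the Adamts4/Bcr cells, 92.5% in library 1 (87.3 to 96.1%) and 91.8% in library 2 (90.1 to 93.2%) had 3 or more Bcr UMIs alone. Only 22.5% (16.3 to 29.8%) and 30.6% (28.1 to 33.2%) had 3 or more Adamts4 UMIs, while 56.2% (48.2 to 64.1%) and 44.5% (41.7 to 47.3%) had 0. The median cell therefore held 5.5 and 6 Bcr UMIs but 0 and 1 Adamts4 UMIs, so that the cells are Bcr-positive Plvap capillary cells of which a part also carried Adamts4. Just inside the bound, the 32 and 173 cells with exactly 3 selecting UMIs had 569 and 452 CPM of Gja1, against 508 and 398 CPM in the 33 and 209 cells with exactly 2, just outside it. For Socs3 it was 1211 and 972 CPM with exactly 3, against 830 and 1021 CPM with exactly 2, and for Kdm6b 553 and 359 CPM with exactly 3, against 398 and 328 CPM with exactly 2.

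Cells with 3 or more Bcr UMIs had Adamts4 more often than those with fewer in both libraries. In library 1 their counting interval lay above that of cells with 1 or 2 Bcr UMIs but overlapped with that of cells with 0. Among all gated cells thinned to 2000 UMIs, 33.3% of those with 3 or more Bcr UMIs in library 1 (31 of 93, 23.9 to 43.9%) and 48.0% in library 2 (339 of 706, 44.3 to 51.8%) had an Adamts4 UMI, against 15.5% (11 of 71, 8.00 to 26.0%) and 13.7% (71 of 518, 10.9 to 17%) of those with 0 Bcr UMIs. Cells with 1 or 2 Bcr UMIs had 12.8% (11 of 86, 6.56 to 21.7%) and 23.6% (160 of 678, 20.4 to 27%). Thinning left out 51 and 149 shallower cells. As a description with no test and without thinning, gated cells with 2 or more Bcr UMIs (181 and 1406) carried 607 and 623 CPM of Adamts4. Those with 0 Bcr UMIs carried 87.7 and 103.7 CPM. Gated cells with 2 or more Adamts4 UMIs (50 and 518) carried 1794 and 2014 CPM of Bcr. Those with 0 Adamts4 UMIs carried 906 and 867 CPM.

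Of the 5 marker genes, Bcr, Socs3 and Kdm6b lay close to their level in venous cells, Gja1 above it and Adamts4 below it. Their levels are a description, since they were chosen on these libraries. Adamts4/Bcr cells were also kept for their Adamts4 and Bcr UMIs, which raises both levels. The venous, arterial and Gpihbp1/Aqp1 classes had no such condition, so for these 2 genes selected cells are set beside unselected ones. Adamts4 (chr1:171250421-171260637, plus strand, GRCm38) averaged 719 ± 10.1 CPM in Adamts4/Bcr cells, 2343 ± 24.3 CPM in venous cells, 330.2 ± 70.6 CPM in arterial cells and 74.7 ± 32.8 CPM in capillary cells with more Gpihbp1 and Aqp1 than Plvap (mean ± SD, n = 2 libraries). Bcr (chr10:75060592-75184921, plus strand) averaged 1732 ± 55.3 CPM in Adamts4/Bcr cells, 1695 ± 110.1 CPM in venous cells, 922 ± 84.5 CPM in arterial cells and 299 ± 73.3 CPM in Gpihbp1/Aqp1 capillary cells. Thus the order of both genes put the Gpihbp1/Aqp1 capillary cells last, and for Bcr the Adamts4/Bcr and venous classes overlapped, whereas Adamts4 was over 3 times higher in venous cells. In fact 84.6% of venous cells in library 1 (71.9 to 93.1%) and 82.6% in library 2 (76.2 to 87.8%) also had 3 or more selecting UMIs. So had 43.6 and 50.9% of arterial cells and 16.4 and 12.97% of Gpihbp1/Aqp1 capillary cells in libraries 1 and 2. Among the gated Plvap cells the share was 53.2 and 62.4%. The selecting UMIs were therefore not confined to the Plvap and venous classes.

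Gja1 (chr10:56377330-56402513, plus strand), which encodes the gap junction protein connexin 43, stood at 951 and 846 CPM in Adamts4/Bcr cells of libraries 1 and 2 and at 189 and 257 CPM in double-negative cells. Socs3 (chr11:117966079-117970047, minus strand), the inhibitor of gp130 signalling, stood at 1804 and 1614 CPM in Adamts4/Bcr cells against 430.4 and 637 CPM in double-negative cells. Kdm6b (chr11:69398508-69413675, minus strand), a demethylase of the repressive H3K27 trimethyl mark, stood at 723 and 639 CPM in Adamts4/Bcr cells against 253 and 275 CPM in double-negative cells. The groups did not overlap for any of the 3 genes, which were chosen on these libraries. As a background, 64.6% of all 9263 genes tested had the same direction in both libraries. Venous cells carried 713 and 599.9 CPM of Gja1, 1984 and 1350.1 CPM of Socs3 and 649.9 and 657 CPM of Kdm6b. The Adamts4/Bcr values of Gja1 lay above the venous ones in both libraries, and those of Socs3 and Kdm6b overlapped with them. Among relatives of the markers, Gjc1, another connexin gene, had 26.3 and 41.8 CPM in Adamts4/Bcr cells against 40.2 and 43.0 CPM in double-negative cells and did not pass.

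**Figure D1:**
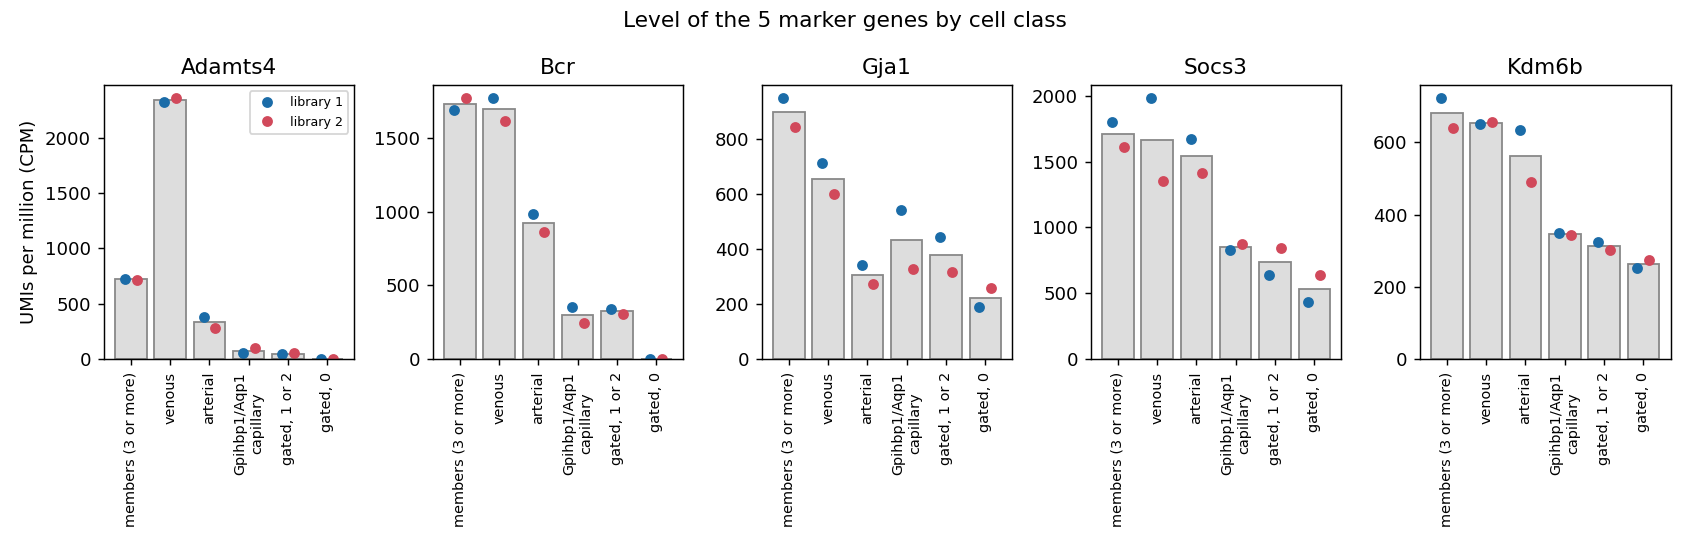
Level of the 5 marker genes (CPM) in Adamts4/Bcr cells (members), venous, arterial and Gpihbp1/Aqp1 capillary cells, gated cells with 1 or 2 selecting UMIs and double-negative cells. Points are the 2 libraries and bars their mean. For Gja1, Socs3 and Kdm6b the Adamts4/Bcr bar is the highest or close to that of venous cells, and the double-negative bar is the lowest; Adamts4 and Bcr are 0 there by the rule.

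The first comparison asked what else differs between Adamts4/Bcr cells and double-negative cells of the same gates. Of 9263 genes tested with edgeR on UMI sums per library and class, 8.91% passed a Benjamini-Hochberg adjusted p of 0.05: 639 were higher in Adamts4/Bcr cells (6.9%) and 186 were lower (2.01%). The largest increase among the genes named was that of the cytokine gene Il6, and the largest decrease that of Btnl9, a butyrophilin-like gene of capillary endothelium. The split of calls depends on scaling: without TMM, the correction of edgeR for composition, 389 genes were higher and 489 lower, with the median log2 change of all genes at -0.18. Log2 fold changes below are followed by their SE, and each gene given with one passed the test unless it is said that it did not. Without the cells that held 10 or more UMIs of another cell type, 656 genes were higher and 197 lower, and 791 genes were called in both fits. DESeq2 called 358 higher and 55 lower.

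Il6 stood at 150.5 and 139 CPM in Adamts4/Bcr cells of libraries 1 and 2 (103 and 842 UMIs) and at 23.0 and 14.6 CPM in double-negative cells (4 and 16 UMIs), a log2 fold change of 3.35 ± 0.57 (edgeR adjusted p = 0.0114). The groups did not overlap, but the UMIs lay in few cells. Il6 UMIs were found in 23 of 160 and 222 of 1279 Adamts4/Bcr cells, against 2 of 64 and 10 of 314 double-negative cells, and the top 5% of Adamts4/Bcr cells held 74.8 and 70.3% of them. Among cells with 3000 to 8000 UMIs, and without the deepest 5% of cells, the Il6 call was lost. Rnd1, which encodes a protein that loosens actin stress fibres, was spread more widely. It stood at 559.6 and 558 CPM in Adamts4/Bcr cells and 91.8 and 145 CPM in double-negative cells (2.24 ± 0.18, edgeR adjusted p = 1.27e-09), with the top 5% of Adamts4/Bcr cells holding 27.7 and 26.5% of its UMIs.

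Tnfaip3, which encodes the NF-kB inhibitor A20, stood at 153 and 117 CPM in Adamts4/Bcr cells and 28.7 and 32.0 CPM in double-negative cells (2.18 ± 0.24). Plaur, the urokinase receptor, had 134 and 136 CPM in Adamts4/Bcr cells against 28.7 and 31.1 CPM in double-negative cells (2.29 ± 0.25), and Noct, a circadian phosphatase, 162 and 128 CPM in Adamts4/Bcr cells against 23.0 and 29.3 CPM in double-negative cells (2.44 ± 0.37). In each of these 3 genes both Adamts4/Bcr values were at least 3 times the double-negative ones. Tnfrsf12a, the receptor of the cytokine TWEAK, had 105 and 104 CPM in Adamts4/Bcr cells against 17.2 and 29.3 CPM in double-negative cells (2.10 ± 0.24), and Tnfsf9, the ligand of 4-1BB, 86.2 and 85.2 CPM in Adamts4/Bcr cells against 0 and 28.4 CPM in double-negative cells (2.04 ± 0.28). The remaining leading increases were the small GTPase genes Rab20 (2.57) and Rrad (2.52), the inhibitory receptor gene Lag3 (2.38), the orphan nuclear receptor gene Nr4a3 (2.24) and the gene model Gm16486 (2.05). These 12 were taken from genes with at least 50 CPM in both libraries of the higher class and 1 direction in both, as were the 12 decreases below; of all called genes, 97.0% had the same direction in both libraries.

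Promoter sequence is shown for Il6 and Tnfaip3, which were among the 12 largest increases and hold an NF-kB and an AP-1 motif, and for the marker Socs3, which holds a STAT motif. Each run spans 250 bases before to 50 after a RefSeq start on GRCm38.p6, 5′ to 3′ on the gene's strand, and capitals mark matches on either strand to TGANTCA (AP-1) or GGGNN followed by TTTCC (NF-kB) in Il6 and Tnfaip3, and to TTCNNNGAA (STAT) in Socs3; the marked stretches do not overlap.
Il6 (chr5:30012864-30013163, plus strand): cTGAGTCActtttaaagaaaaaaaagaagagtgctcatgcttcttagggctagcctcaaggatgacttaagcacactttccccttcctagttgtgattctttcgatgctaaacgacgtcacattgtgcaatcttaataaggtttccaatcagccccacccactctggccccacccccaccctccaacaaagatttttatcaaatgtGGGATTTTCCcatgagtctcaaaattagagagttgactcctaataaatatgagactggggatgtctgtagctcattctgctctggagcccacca
Tnfaip3 (chr10:19015361-19015660, minus strand): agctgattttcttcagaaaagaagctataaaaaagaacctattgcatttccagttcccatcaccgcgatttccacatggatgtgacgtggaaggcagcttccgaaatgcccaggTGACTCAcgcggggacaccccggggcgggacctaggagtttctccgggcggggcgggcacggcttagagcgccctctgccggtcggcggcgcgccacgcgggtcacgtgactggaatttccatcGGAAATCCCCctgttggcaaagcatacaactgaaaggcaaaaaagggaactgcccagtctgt
Socs3 (chr11:117969317-117969616, minus strand): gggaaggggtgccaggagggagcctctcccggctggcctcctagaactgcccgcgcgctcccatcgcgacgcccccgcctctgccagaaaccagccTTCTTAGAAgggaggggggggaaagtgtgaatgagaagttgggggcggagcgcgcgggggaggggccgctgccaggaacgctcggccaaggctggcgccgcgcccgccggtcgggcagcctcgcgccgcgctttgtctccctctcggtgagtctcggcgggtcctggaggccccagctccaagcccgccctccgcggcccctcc
Promoters were at hand for 7 of the 12 leading genes. The NF-kB motif was in 2 of these 7 and in 1.63% of all 32851 promoters, the AP-1 motif in 3 of 7 (with Plaur) and 7.81%, the STAT motif in 0 of 7 and 8.30%, and the CRE motif TGACGTCA in 0 of 7 and 1.79%. The shares are of single promoters, whereas a gene was counted when any of its promoters matched. Tnfaip3 had a second start in the table, whose promoter (chr10:19011914-19012213, minus strand) held none of the motifs. Among the marker genes, promoters were also at hand for Gja1 and Bcr. That of Gja1 held an AP-1 motif but no STAT motif, and that of Bcr held none of the motifs. A match says only that these letters are present.

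**Figure D2:**
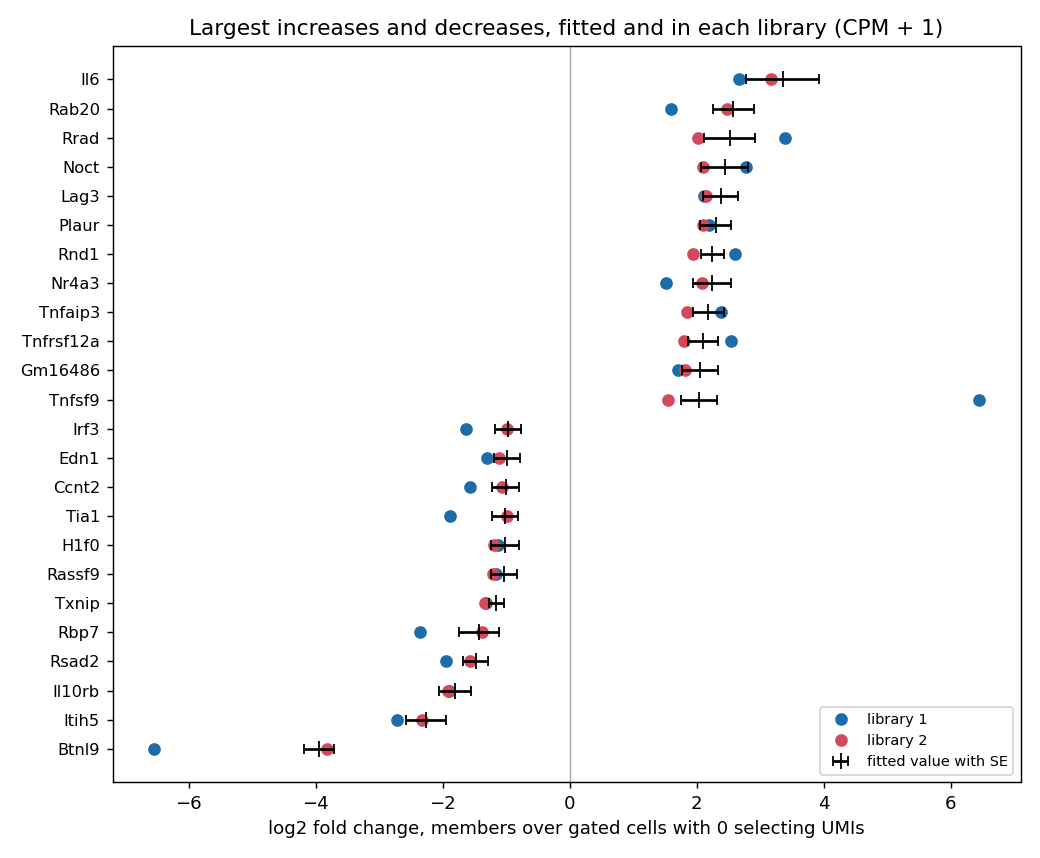
Log2 fold change of the 12 largest increases and 12 largest decreases in Adamts4/Bcr cells over double-negative cells. Coloured points are the change in each library on CPM plus 1, and black bars the fitted value with its SE. Both libraries lie on the same side of 0, as the choice of genes required; the point of Tnfsf9 in library 1 is far right because the double-negative cells there had 0 UMIs.

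Gene lists of cytokine and stress signalling were mostly higher in Adamts4/Bcr cells, and these lists were drawn up with results on these libraries known. Of 19 tested gp130 and STAT3 genes, 13 were higher and 0 lower (median log2 change 0.94, against -0.0023 over all genes). They included Cish (2.02 ± 0.23) and the STAT3 gene itself (0.91 ± 0.13), the C/EBP factor genes Cebpb (1.49 ± 0.26) and Cebpd (1.43 ± 0.14), Fosl2 (1.42 ± 0.14), the NF-kB cofactor gene Bcl3 (1.18 ± 0.18) and the oncostatin M receptor gene Osmr (0.66 ± 0.12). The shared receptor subunit Il6st had 402 and 359 CPM in Adamts4/Bcr cells against 373 and 369 CPM in double-negative cells and did not pass. Of 16 tested NF-kB genes, 10 were higher and 0 lower (median 1.35, or 1.30 without Ptgs2, which had 0 UMIs in double-negative cells). Beside Il6 and Tnfaip3 these included Birc3, an inhibitor of apoptosis (2.03 ± 0.22), Nfkbia (1.40 ± 0.22) and Irf1 (1.47 ± 0.16). Without the cells that held 10 or more UMIs of another cell type, the counts were 13 of 19 and 10 of 16, beside 656 of all 9179 genes tested. These levels were not particular to the Adamts4/Bcr cells. The NF-kB list summed to 4075 and 3227 CPM in them, 4025 and 2904 CPM in arterial cells and 2045 and 2089 CPM in Gpihbp1/Aqp1 capillary cells. For the gp130 and STAT3 list it was 6306 and 6291, 5590 and 5499, and 4596 and 4799 CPM in the same order.

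Immediate early and heat shock genes moved with them. Of 21 immediate early genes, 8 were higher and 0 lower (median 0.90), among them Atf3 (1.63 ± 0.20), Ier3 (1.51 ± 0.15) and Zfp36 (1.50 ± 0.13), while Fos had 2206 and 1559 CPM in Adamts4/Bcr cells against 1056 and 1574 CPM in double-negative cells and did not pass. Of 8 heat shock genes, 7 were higher (median 0.95), among them Hspa8 (1.14 ± 0.11). These are genes of tissue handling as well as of signalling, and their summed level differed between the libraries: the 21 immediate early genes summed to 23602 and 20989 CPM in Adamts4/Bcr cells of libraries 1 and 2, against 8752 and 15332 CPM in double-negative cells. Arterial cells had 23891 and 21969 CPM of them, and Gpihbp1/Aqp1 capillary cells 18042 and 22066 CPM. The 8 heat shock genes summed to 6381 and 9943 CPM in Adamts4/Bcr cells and 6334 and 9559 CPM in arterial cells. In Gpihbp1/Aqp1 capillary cells they summed to 4183 and 7173 CPM. A band of core immediate early share from 0.5 to 2% left 77 and 809 Adamts4/Bcr cells and 13 and 126 double-negative cells. Between the cells of this band, 274 of all 8152 genes tested were higher and 70 lower. There the gp130 list had 12 of 17 tested genes higher, the NF-kB list 6 of 15, the heat shock list 2 of 8, and the immediate early list 5 higher and 1 lower of 21. With the depth also held to 3000 to 8000 UMIs, only 7 and 67 double-negative cells were left. Of 8153 genes tested, 242 were then higher and 46 lower. In these 2 runs the bands were set on the gated cells only. The venous, arterial and Gpihbp1/Aqp1 cells of the fit stayed as they were. When cells were chosen by Adamts4 alone, those with 2 or more UMIs were set against those with 0. The immediate early list then had 8 genes higher and 3 lower with a median of -0.04. The gp130 list had 12 of 19 higher and 1 lower and the NF-kB list 10 of 16 higher. Over all 9401 genes tested in that choice, 826 were higher and 286 lower.

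Proteases and Notch genes were also among the increases. Of 11 tested genes of the ADAMTS, TIMP and plasminogen activation list, 4 were higher and 0 lower: Plaur, Adamts9, Timp3 and Plat. Adamts9, a relative of Adamts4 that also cuts versican, stood at 399 and 439.5 CPM in Adamts4/Bcr cells and 97.6 and 159 CPM in double-negative cells (1.68 ± 0.21, edgeR adjusted p = 5.12e-05). Adamts1 had 1113 and 1139 CPM in Adamts4/Bcr cells against 362 and 606 CPM in double-negative cells and did not pass. The Notch ligand gene Dll4 (1.18 ± 0.16) was higher, as were 2 of 7 tested Notch receptors and targets, Notch1 (0.44 ± 0.12) and the feedback inhibitor gene Nrarp (1.23 ± 0.19).

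Btnl9 had the largest decrease, and 4 of 14 capillary lipid handling genes were lower. Btnl9 stood at 1.46 and 13.4 CPM in Adamts4/Bcr cells of libraries 1 and 2 (1 and 81 UMIs), against 229.6 and 202 CPM in double-negative cells (40 and 221 UMIs), a log2 fold change of -3.95 ± 0.24 (edgeR adjusted p = 9.36e-14). The groups were far apart in both libraries, but few cells held the UMIs. Btnl9 UMIs were found in 9 of 64 and 64 of 314 double-negative cells, against 1 of 160 and 32 of 1279 Adamts4/Bcr cells. The top 5% of double-negative cells held 67.5 and 54.8% of theirs. Venous cells held 0 and 6 Btnl9 UMIs, so a low level was not particular to the Adamts4/Bcr cells. The 4 lower lipid handling genes, with 0 higher, were the glycerol channel gene Aqp7 (-2.55 ± 0.43), the fatty acid sensing receptor Pparg (-2.34 ± 0.52), the homeobox gene Meox2 (-1.63 ± 0.49) and Cd300lg (-0.64 ± 0.14). The abundant members Fabp4 (4884 and 6052 CPM in Adamts4/Bcr cells against 7886 and 8001 CPM in double-negative cells) and Cd36 (1125 and 1211 CPM in Adamts4/Bcr cells against 1584 and 1499 CPM in double-negative cells) did not pass. Rbp7, a retinoid-binding protein gene of capillary endothelium, had 54.1 and 85.2 CPM in Adamts4/Bcr cells against 281 and 223 CPM in double-negative cells (-1.43 ± 0.31), and the apelin receptor gene Aplnr 84.7 and 82.9 CPM in Adamts4/Bcr cells against 264 and 159 CPM in double-negative cells (-0.94 ± 0.18).

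The other leading decreases were Itih5, which encodes a hyaluronan-binding matrix protein (-2.27), the interleukin 10 receptor subunit Il10rb (-1.81), the interferon-induced antiviral gene Rsad2 (-1.48), the thioredoxin inhibitor Txnip (-1.15), Rassf9 (-1.04), the linker histone gene H1f0 (-1.03), the RNA-binding protein gene Tia1 (-1.01), Ccnt2 (-1.01), the vasoconstrictor gene Edn1 (-0.99) and the interferon regulator Irf3 (-0.98). In the 0.5 to 2% band of immediate early share, Tia1, Ccnt2, Edn1, Irf3 and Aplnr no longer passed. Of the other identity lists, 2 of 12 angiogenic tip genes were higher (Nid2 and Mcam), and Esm1, the tip cell gene, had 320.0 and 323 CPM in Adamts4/Bcr cells against 402 and 363 CPM in double-negative cells and did not pass. The fenestra and caveola list had 1 of 10 higher (Vwa1) and 2 lower (Cavin2 and Plpp1), and the arterial list 1 of 16 higher (Dll4) and 1 lower (Edn1). Both tested genes of the cell cycle list were higher, Pcna (165 and 149 CPM in Adamts4/Bcr cells against 28.7 and 85.2 CPM in double-negative cells, 1.23 ± 0.20) and Top2a (40.9 and 19.3 CPM in Adamts4/Bcr cells against 0 and 8.24 CPM in double-negative cells, 1.86 ± 0.50). Markers of other cells also had calls: 2 of 4 tested fibroblast genes and the 1 tested epithelial gene were higher and 3 of 4 erythroid genes lower. Without the cells of 10 or more such UMIs the epithelial gene did not pass and the fibroblast and erythroid genes were too low to be tested.

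**Figure D3:**
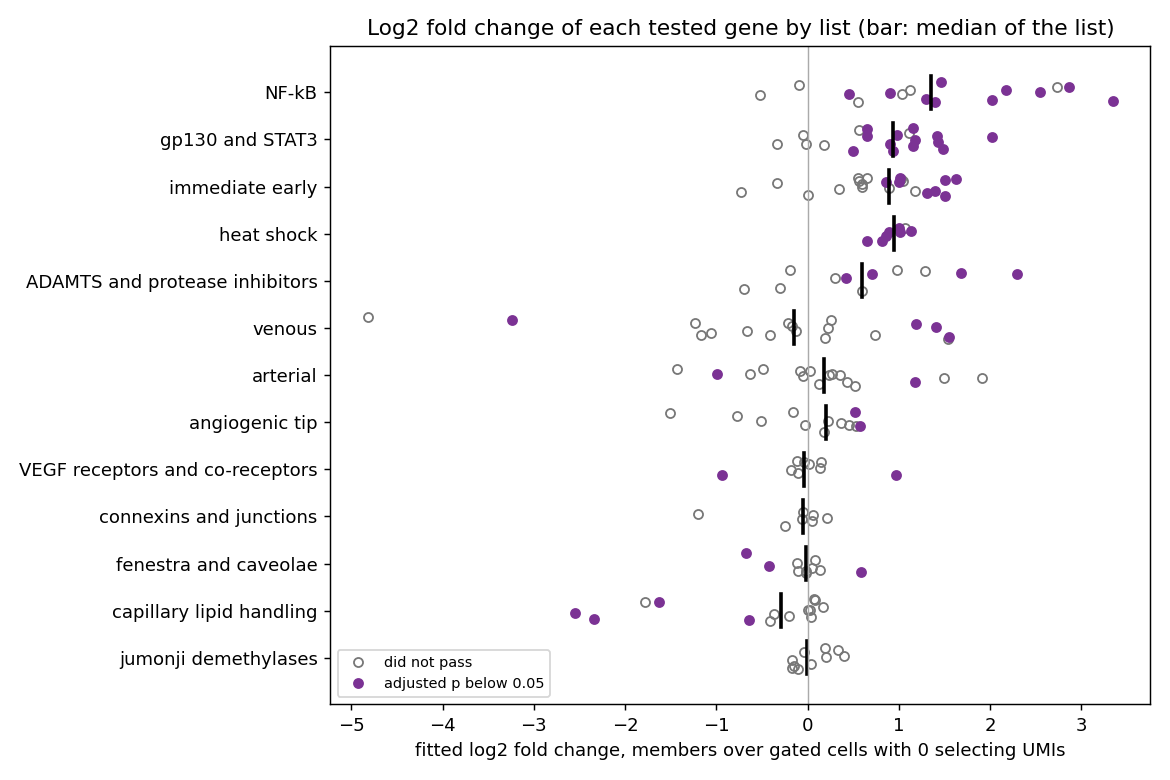
Fitted log2 fold change of each tested gene in 13 lists, Adamts4/Bcr cells over double-negative cells. Filled points passed an adjusted p below 0.05 in edgeR, open points did not, and the black bar is the median of the list. The medians of the NF-kB (1.35), gp130 and STAT3 (0.94), heat shock (0.95) and immediate early (0.90) lists lie right of 0, and that of the capillary lipid list lies left of it at -0.29.

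Few genes were called between cells with 1 or 2 selecting UMIs and double-negative cells. The sums were small, 283774 and 1869534 UMIs against 174243 and 1092182 UMIs, so a low count of calls does not show that the classes were alike. Of 9263 genes, 0.194% passed, 12 higher (0.13%) and 6 lower (0.0648%) in cells with 1 or 2 UMIs. Of the 18 calls, 66.7% had the same direction in both libraries. This comparison and the first share the double-negative cells. Btnl9 was already lower, with 35.2 and 49.2 CPM in cells with 1 or 2 UMIs and 229.6 and 202 CPM in double-negative cells (-2.11 ± 0.23, edgeR adjusted p = 7.09e-07), and Plpp1, a lipid phosphatase, was lower as well (-0.66 ± 0.15). The increases included Birc3 (1.21 ± 0.26), the Ras-like gene Rasl11a (1.43 ± 0.23), the phosphatase gene Dusp5 (1.46 ± 0.32), Apold1 (0.65 ± 0.14) and the cell cycle inhibitor Cdkn1a (0.65 ± 0.13). Among the other calls the fibroblast genes Dcn and Lum were higher and the hemoglobin genes Hbb-bt, Hba-a1 and Hba-a2 lower, and 145 of the 148 erythroid UMIs of double-negative cells in library 2 lay in 1 cell. Gja1 (444 and 317 CPM in cells with 1 or 2 UMIs against 189 and 257 CPM in double-negative cells) and Socs3 (638 and 839.8 CPM in cells with 1 or 2 UMIs against 430.4 and 637 CPM in double-negative cells) did not pass. DESeq2 called 1 gene higher and 2 lower here.

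The next comparison asked how venous-like the cells were, by setting them against venous cells. Of the 9263 genes, 21.0% passed, 931 higher in Adamts4/Bcr cells (10.1%) and 1017 lower (11%). Of 18 venous genes outside the gates, 17 were lower in Adamts4/Bcr cells and 0 higher, with a median log2 fold change of -3.67, against 0.0074 over all genes. Cells were excluded for Ackr1, Selp and Madcam1 UMIs on one side and chosen for them on the other, so lower values of genes that accompany those 3 are partly built into the classes. This comparison shares the Adamts4/Bcr cells with the first.

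Defining venous genes were at or near 0 in Adamts4/Bcr cells. Adgrg6, an adhesion G protein-coupled receptor of venous endothelium, had 0 UMIs in all 1439 Adamts4/Bcr cells and 734 in the 230 venous cells, at least 1357-fold lower when 3 counts over the class are taken as the floor. Sele, which encodes E-selectin, had 2 UMIs in Adamts4/Bcr cells and 943 in venous cells (0 and 0.330 CPM in Adamts4/Bcr cells against 806 and 769 CPM in venous cells). Vcam1, the ligand of leukocyte integrin alpha 4, had 6 UMIs in Adamts4/Bcr cells against 663 in venous cells (0 and 0.991 CPM in Adamts4/Bcr cells against 519 and 552 CPM in venous cells). Nr2f2, the transcription factor gene of venous identity, stood at 10.2 and 18.0 CPM in Adamts4/Bcr cells and 435 and 461 CPM in venous cells (-4.85 ± 0.19, edgeR adjusted p = 5.96e-28). The coagulation factor V gene F5 had 0 and 0.165 CPM in Adamts4/Bcr cells against 321 and 121 CPM in venous cells, and the histidine decarboxylase gene Hdc, which makes histamine, 7.31 and 2.97 CPM in Adamts4/Bcr cells against 625 and 436 CPM in venous cells. Cadm3, Klk14, Cytl1, Pgm5, Wipf3 and Ptk2b completed the 12 largest decreases with 0 to 2.92 CPM in Adamts4/Bcr cells of either library, against 68.5 to 899 CPM in venous cells. The junction gene Cldn5, outside the venous list, had 2.92 and 11.9 CPM in Adamts4/Bcr cells against 1887 and 1160.0 CPM in venous cells (-7.01 ± 0.49).

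Other venous genes were present but lower. Vwf, von Willebrand factor, stood at 153 and 138 CPM in Adamts4/Bcr cells and 1291 and 1147 CPM in venous cells (-3.13 ± 0.24). Icam1, a ligand of leukocyte beta 2 integrins, had 281 and 295 CPM in Adamts4/Bcr cells against 3592 and 3096 CPM in venous cells (-3.58 ± 0.15), and Lrg1 193 and 205 CPM in Adamts4/Bcr cells against 1359 and 1136 CPM in venous cells (-2.70 ± 0.25). Tmem252 (-1.87), the cytokine receptor genes Il1r1 (-2.15) and Csf2rb (-1.92), Tll1 (-3.76), Prcp (-3.55) and Ephb4, the receptor of ephrin B2 (-0.74), were also lower. Ch25h, an oxysterol-producing hydroxylase gene, had 43.8 and 28.6 CPM in Adamts4/Bcr cells against 25.3 and 57.2 CPM in venous cells and did not pass (edgeR adjusted p = 0.0628).

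Against double-negative cells the same list barely separated the Adamts4/Bcr cells. Of the 18 genes, 3 were higher (Icam1, 1.55 ± 0.20; Tmem252, 1.41 ± 0.21; Ch25h, 1.19 ± 0.37) and 1 was lower (Vcam1, at 6 UMIs in Adamts4/Bcr cells against 13 in double-negative cells, all in library 2), with a median of -0.15. The Ch25h call was lost in 10 of 19 alternatives. Nr2f2 had 10.2 and 18.0 CPM in Adamts4/Bcr cells against 28.7 and 14.6 CPM in double-negative cells and Vwf 153 and 138 CPM in Adamts4/Bcr cells against 356 and 127 CPM in double-negative cells, and neither passed. The summed level of the 18 genes was 1422 and 1314 CPM in Adamts4/Bcr cells, 11851 and 10443 CPM in venous cells and 1085 and 993 CPM in double-negative cells. On this sum the Adamts4/Bcr cells lay beside the double-negative cells and far from the venous ones. Both capillary classes had passed the same limit on venous UMIs, and the venous cells were chosen for them. This placement is therefore partly built into the classes.

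**Figure D4:**
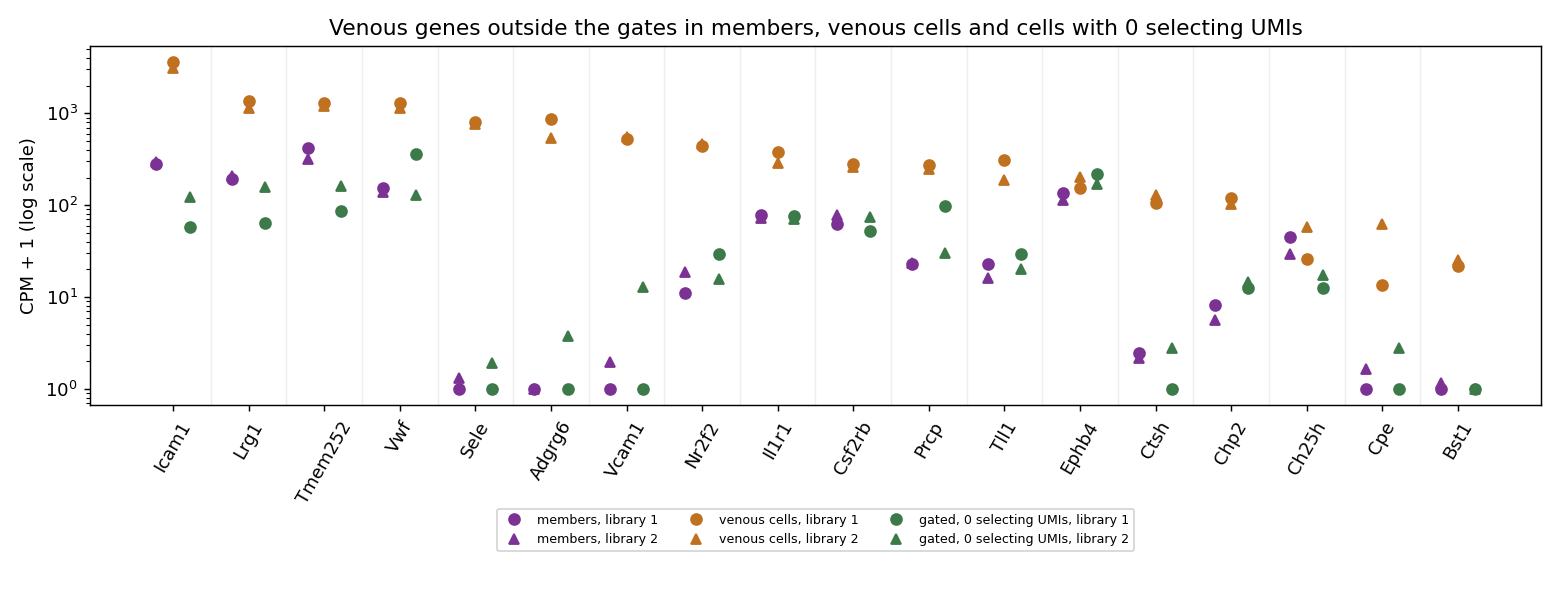
Level (CPM plus 1, log scale) of 18 venous genes outside the gates in Adamts4/Bcr cells (members), venous cells and double-negative cells, one point per library. Venous cells lie above both capillary classes except in Ephb4 and Ch25h, where points overlap; in Icam1 and Tmem252 the Adamts4/Bcr points lie between the other 2 classes, and in Sele, Adgrg6 and Vcam1 they lie at the bottom.

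Of the inducible lists that were higher than in double-negative cells, only the NF-kB list was mostly lower than in venous cells. The gp130 and STAT3 list and the immediate early list were mixed, and the heat shock list was mostly higher. Of 16 NF-kB genes, 14 were lower in Adamts4/Bcr cells than in venous cells and 0 higher (median -1.19). Il6 stood at 150.5 and 139 CPM in Adamts4/Bcr cells against 321 and 461 CPM in venous cells (-1.62 ± 0.30), Rnd1 at 559.6 and 558 CPM in Adamts4/Bcr cells against 1524 and 1545 CPM in venous cells (-1.54 ± 0.14) and Adamts9 at 399 and 439.5 CPM in Adamts4/Bcr cells against 1068 and 1135 CPM in venous cells (-1.46 ± 0.17). Csf3, which encodes the granulocyte growth factor G-CSF, had 4.38 and 18.8 CPM in Adamts4/Bcr cells against 257 and 419 CPM in venous cells (-4.64 ± 0.21). Of 19 gp130 and STAT3 genes, 2 were higher (Osmr and Socs1) and 8 lower, while Cish (113 and 104 CPM in Adamts4/Bcr cells against 127 and 136 CPM in venous cells) and Bcl3 (181 and 176 CPM in Adamts4/Bcr cells against 169 and 209.5 CPM in venous cells) did not pass. Plaur had 134 and 136 CPM in Adamts4/Bcr cells against 135 and 190.1 CPM in venous cells and did not pass either. Of 21 immediate early genes, 3 were higher and 4 lower than in venous cells, and of 8 heat shock genes 7 were higher, as they were against double-negative cells.

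Capillary, tip and arterial-type genes were higher in Adamts4/Bcr cells than in venous cells. Of 12 angiogenic tip genes, 8 were higher and 0 lower, led by the basement membrane gene Nid2 (136 and 142 CPM in Adamts4/Bcr cells against 0 and 8.18 CPM in venous cells, 4.34 ± 0.34) and by Esm1 (320.0 and 323 CPM in Adamts4/Bcr cells against 0 and 19.4 CPM in venous cells, 4.31 ± 0.26). The VEGF receptor gene Kdr (1563 and 1596 CPM in Adamts4/Bcr cells against 257 and 405 CPM in venous cells, 2.10 ± 0.13) and its co-receptor Nrp1 (2.39 ± 0.12) were higher, as were 9 of 14 capillary lipid handling genes with 1 lower, and 8 of 16 arterial list genes with 2 lower. The higher arterial genes included the connexin gene Gja4 (3.42 ± 0.27) and the Notch target Hey1 (3.45 ± 0.35) and Notch4, from the Notch list, was higher as well (3.51 ± 0.32). Igfbp3, a binding protein of insulin-like growth factors, stood at 1690.5 and 1661 CPM in Adamts4/Bcr cells against 4.22 and 159 CPM in venous cells (3.72 ± 0.55), and the chemokine Cxcl12 at 3387 and 3001 CPM in Adamts4/Bcr cells against 29.5 and 378 CPM in venous cells (3.53 ± 0.57). The endothelin B receptor gene Ednrb (3.63 ± 0.33), the tetraspanin gene Tspan8 (3.80 ± 0.34), the lipoxygenase gene Alox12 (3.67 ± 0.37), Gprc5b (3.81 ± 0.43), Ssu2 (3.70 ± 0.34), Mlec (3.52 ± 0.34) and Lrrc3b (3.49 ± 0.34) were the other leading increases, and of these Tspan8, Gprc5b and Alox12 had 0 UMIs in venous cells of library 1.

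Because the rule itself removes cells with venous UMIs, the gates were applied again without the venous limit. Of the cells with 3 or more selecting UMIs, 19.6% in library 1 (39 of 199, 14.3 to 25.8%) and 10.2% in library 2 (146 of 1425, 8.72 to 11.9%) then had 2 or more UMIs of Ackr1, Selp and Madcam1. Among cells with 0 selecting UMIs it was 5.88% (4 of 68, 1.63 to 14.4%) and 2.48% (8 of 322, 1.08 to 4.84%). Of the 39 and 146 cells so admitted, 38 and 133 had 5 or more venous UMIs, the bound that defines the venous cells. The venous class itself was left with 7 and 20 of its 52 and 178 cells under these gates. The shares therefore count mostly cells of the venous class that meet the Plvap gate, and do not describe the Adamts4/Bcr cells inside the limit. With these cells let in, Sele stood at 209 and 105 CPM with 3 or more selecting UMIs, against 5.41 and 2.67 CPM with 0. Nr2f2 stood at 96.1 and 71.6 CPM against 37.8 and 32.1 CPM. For Vwf it was 393 and 257 CPM against 373 and 160 CPM, and it did not pass. As a background, Gpihbp1/Aqp1 capillary cells without the limit had such UMIs in 2.07 and 2.88% of cells (median depths 2915 and 3257 UMIs), and lymphatic cells in 1.20 and 3.51% (2854 and 2269 UMIs), against median depths of 4163 and 4531 UMIs in the cells with 3 or more selecting UMIs. Thinned to 2000 UMIs, the shares were 19.7 and 9.50% with 3 or more selecting UMIs, against 5.0 and 1.96% with 0.

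The same cells of the venous class enter the shares when these are split by Adamts4, a gene of which venous cells carried more than Adamts4/Bcr cells did. With the limit dropped, cells with 3 or more Adamts4 UMIs had 2 or more venous UMIs in 47.1% of cases in library 1 (32 of 68, 34.8 to 59.6%) and 22.7% in library 2 (115 of 506, 19.1 to 26.6%). Cells with 3 or more selecting UMIs but 0 Adamts4 had them in 3.23% (3 of 93, 0.670 to 9.14%) and 1.90% (11 of 580, 0.950 to 3.37%), near the shares of the Gpihbp1/Aqp1 capillary cells. Of the 32 and 115 such cells with 3 or more Adamts4 UMIs, 31 and 108 had 5 or more venous UMIs. Inside the venous limit, 96.2 and 94.3% of Adamts4/Bcr cells had 0 UMIs of the 3 venous genes, against 98.4 and 93.3% of double-negative cells. The rule held both classes to at most 1 such UMI, so these shares cannot show how venous-like the cells were.

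A further comparison, added after these values were seen, set Adamts4/Bcr cells with 3 or more Adamts4 UMIs (Adamts4-high, 36 and 391 cells) against those with 0 (Adamts4-0, 90 and 569 cells). Of 9562 genes, 6.37% passed, 464 higher in the Adamts4-high cells (4.85%) and 145 lower (1.52%). Il6 and Noct had the largest increases, and Fos and the flow-induced gene Klf2 were among the 12 largest decreases. Bcr itself was not tested here, since the rule fixes it jointly with Adamts4. With no TMM scaling, 323 genes were higher and 250 lower, and the median of all genes stood at -0.11. Without the cells of 10 or more UMIs of another cell type, most of them in library 2, 473 were higher and 111 lower, with 455 genes called in both fits.

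Gja1 stood at 1634 and 1160.0 CPM in Adamts4-high cells of libraries 1 and 2 and at 675 and 576 CPM in Adamts4-0 cells, given as a description with no test. Kdm6b had 1136 and 869 CPM in Adamts4-high cells against 571 and 458 CPM in Adamts4-0 cells, and Socs3 2113 and 1965 CPM in Adamts4-high cells against 1685 and 1352 CPM in Adamts4-0 cells. The groups did not overlap for any of these 3 markers, and 59.3% of all 9562 genes had the same direction in both libraries. Il6 had 558 and 259 CPM in Adamts4-high cells against 26.0 and 59.2 CPM in Adamts4-0 cells (2.68 ± 0.50, edgeR adjusted p = 0.0196), and its call was lost with 3000 to 8000 UMIs per cell. Noct (2.50 ± 0.36), Rab20 (1.98 ± 0.21), the NF-kB subunit gene Rel (1.75 ± 0.18), the activin subunit gene Inhbb (1.62 ± 0.18), Plaur (1.60 ± 0.17), Adamts9 (1.29 ± 0.15) and Dll4 (0.79 ± 0.14) were higher as well. The other leading increases were Cd74, the invariant chain of MHC class II (2.41 ± 0.35), the tubulin gene Tubb6 (2.29 ± 0.31), Tnfaip8l1 (2.05 ± 0.28), the interferon-induced gene Ifit1 (1.73 ± 0.25), Mbd1 (1.62 ± 0.22) and Neurl3 (1.59 ± 0.23). Of these, Neurl3 stood at 119.6 and 69.2 CPM in Adamts4-high cells and 31.1 and 26.2 CPM in Adamts4-0 cells, below its 831 and 562 CPM in venous cells, and Cd74 at 73.1 and 80.8 CPM in Adamts4-high cells and 5.19 and 18.1 CPM in Adamts4-0 cells, below its 481 and 457 CPM in venous cells. The Cd74 call was lost with 3000 to 8000 UMIs per cell, without the deepest 5% of cells and in the 0.5 to 2% band of immediate early share.

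By list, 10 of 19 gp130 and STAT3 genes were higher and 1 lower (Lifr), and 7 of 16 NF-kB genes were higher, among them Tnfaip3 (1.55 ± 0.24). Of 21 immediate early genes, 2 were higher (Jund and Myc) and 4 lower (Fos, Jun, Egr2 and Btg2), and 0 of 8 heat shock genes changed. Fos stood at 1123 and 794 CPM in Adamts4-high cells and 2559 and 2128 CPM in Adamts4-0 cells (-1.26 ± 0.22), and Klf2 at 598 and 685 CPM in Adamts4-high cells against 1191 and 1545 CPM in Adamts4-0 cells (-1.04 ± 0.18). Txnip (-1.67 ± 0.15), Tmem204 (-1.64 ± 0.19), the homeobox gene Hlx (-1.60 ± 0.22), Alox12 (-1.25 ± 0.21), Dgke (-1.26 ± 0.23), Zfp366 (-1.15 ± 0.20), the glucocorticoid-induced gene Tsc22d3 (-1.13 ± 0.17), Ccdc28b (-1.12 ± 0.21), 2310001H17Rik (-1.04 ± 0.25), Gimap1 (-1.03 ± 0.18) and Esm1 (133 and 237 CPM in Adamts4-high cells against 374 and 388 CPM in Adamts4-0 cells, -0.73 ± 0.16) were lower too. Among the 18 venous genes 3 were higher, all with small margins: Nr2f2 (19.9 and 24.0 CPM in Adamts4-high cells against 10.4 and 12.1 CPM in Adamts4-0 cells, 1.09 ± 0.35), Csf2rb (0.62 ± 0.20) and Tmem252 (0.61 ± 0.18). Each of these 3 calls was lost in 7 or more of 11 alternatives, and Nr2f2 in Adamts4-high cells was far below the 435 and 461 CPM of venous cells.

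**Figure D5:**
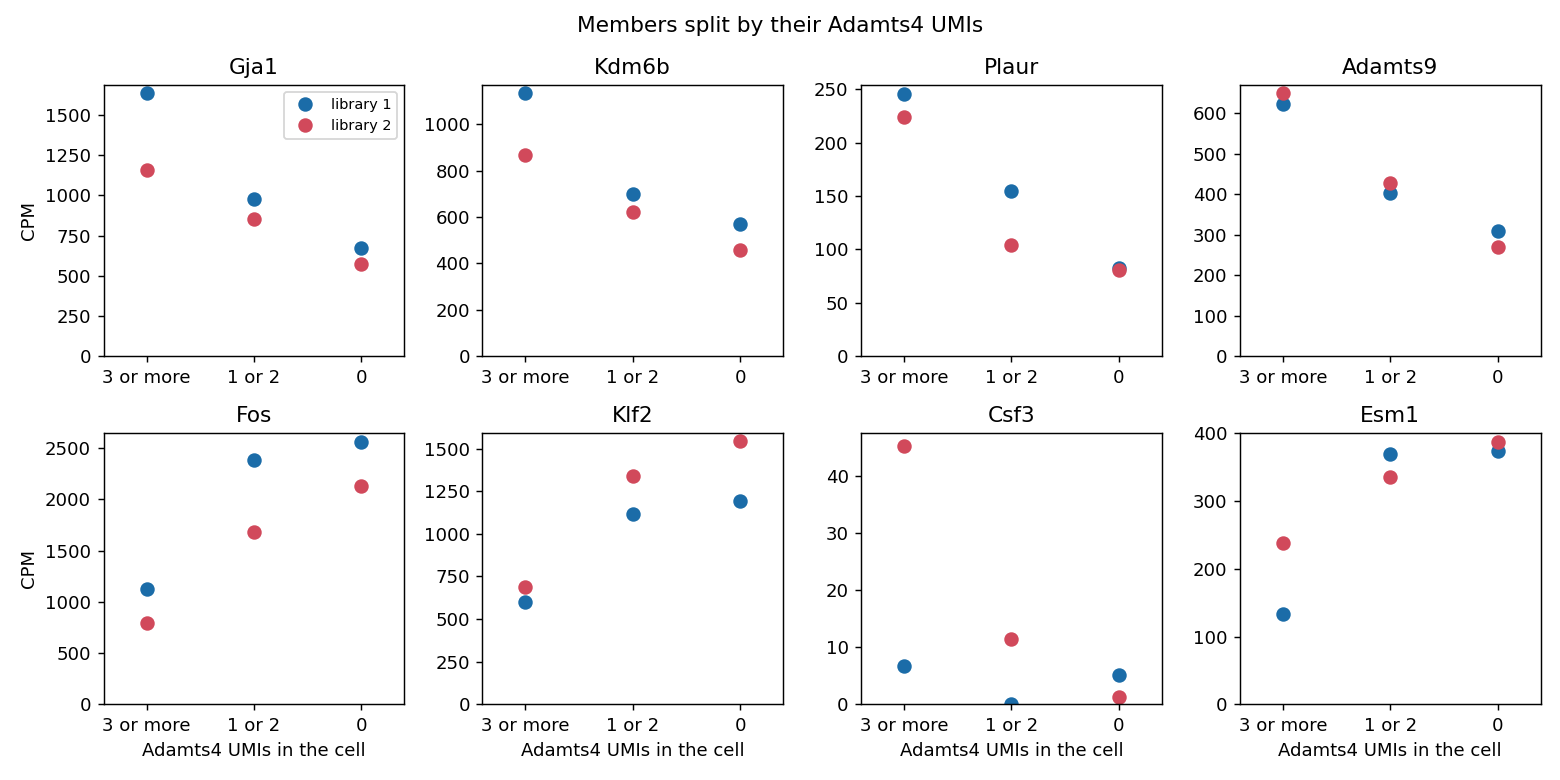
Level (CPM) of 8 genes in Adamts4/Bcr cells with 3 or more, 1 or 2 and 0 Adamts4 UMIs, one point per library. Gja1, Kdm6b, Plaur and Adamts9 are highest at the left, whereas Fos, Klf2 and Esm1 are lowest there; Csf3 is high only in library 2.

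Marker lists of other cells also moved with this split in library 2: the epithelial, pericyte, fibroblast and erythroid lists all had calls in the full set (1 of 1, 3 of 4, 3 of 5 and 4 of 4 tested genes higher). Without the cells of 10 or more such UMIs, the 1 epithelial and 1 pericyte gene still high enough to test did not pass, and 10 of 19 gp130 and 7 of 16 NF-kB genes were still higher. Of all 9356 genes tested there, 473 were higher. Median depths were 4378.5 and 4908 UMIs in Adamts4-high cells and 4159 and 4125 UMIs in Adamts4-0 cells. Core immediate early shares were 0.875 and 0.916% in Adamts4-high cells against 1.91 and 1.62% in Adamts4-0 cells, the opposite direction from that of Adamts4/Bcr against double-negative cells. Their part in the result was not tested beyond the bands given; in the 0.5 to 2% band, 215 genes were higher and 40 lower.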

How the data were processed

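The deposited files held UMI counts per gene and cell barcode for 2 libraries and 31053 gene rows. The authors made these counts, per the submitters' processing notes, with bcl2fastq 2.2 and Cell Ranger 3.1.0 on mm10, and no further filter, doublet removal or normalization is given in the sources used here. No doublet caller was run; a run without the deepest 5% of cells stands in its place. The members and gene lists were chosen with earlier results of these data known.

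Counts were summed per library and class of cells, which gave 12 sums, and tested with edgeR 4.0.16 in R 4.3.3 (TMM scaling, filterByExpr with a minimum count of 10, robust quasi-likelihood fit, library as a block, Benjamini-Hochberg adjustment). The fit had 5 residual degrees of freedom. The SE is the absolute log2 fold change over the square root of the F statistic of the test. The split of Adamts4/Bcr cells by Adamts4 was fitted apart, with 16 sums and 7 residual degrees of freedom. The library is the block because both classes of a pair come from the same library. DESeq2 1.42.0 was an alternative. CPM are 1000000 times a gene's UMIs over all UMIs of the class in a library. The text names, in each comparison, up to 12 of the largest increases and of the largest decreases among called genes that reached 50 CPM in each library, in the class where they were higher, and had 1 direction, genes of the lists by size of change, and other genes of the lists that bear on the question, which were chosen after their values were seen. Adamts4, Bcr and the gate genes were not tested. Thinning drew 2000 UMIs per cell. Alternatives changed the gates, depth, immediate early share, filter, scaling and tool, 1 at a time with these exceptions. A run held immediate early share and depth together, and the cell filter moved both of its bounds. Cells chosen by Adamts4 or by Bcr alone also had the bound lowered to 2 UMIs. Class sums ranged from 174243 to 6056757 UMIs, and the lowest of the split was 148661.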

Additional observations from a re-analysis of the deposited data

How the results depend on the processing

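In Adamts4/Bcr cells against double-negative cells (639 genes higher, 186 lower), DESeq2 called 358 higher and 55 lower, no scaling gave 389 and 489, and the fit with no replicate block, the library taken out of the model, gave 220 and 30. Cells with 0 Esm1 UMIs gave 407 and 92, an immediate early share of 0.5 to 2% gave 274 and 70, and that share with 3000 to 8000 UMIs gave 242 and 46. The lower genes numbered 93 with 3000 to 8000 UMIs alone and 280 in cells below the median immediate early share. They numbered 286 for cells chosen by Adamts4 alone, with a bound of 2 UMIs. In Adamts4/Bcr cells against venous cells (931 higher, 1017 lower), DESeq2 called 518 higher, and the fit with no replicate block 544 higher and 667 lower. In cells with 1 or 2 selecting UMIs against double-negative cells (12 higher, 6 lower), DESeq2 called 1 higher and 2 lower, the fit without the expression filter 24 and 13, and edgeR with no replicate block 0 and 1, with 250 genes at an unadjusted p below 0.05 there and 216 in DESeq2. In Adamts4-high against Adamts4-0 cells (464 higher, 145 lower), DESeq2 called 202 and 54, no replicate block gave 143 and 17, 0 Esm1 UMIs 213 and 71, the 0.5 to 2% band 215 and 40, and the lower genes numbered 250 without scaling and 81 with 3000 to 8000 UMIs. The share of Adamts4/Bcr cells among gated cells was 64.1 and 72.5% with a bound of 2 UMIs, 38.2 and 46.5% with a bound of 5, and 63.3 and 65.9% among cells of 3000 to 8000 UMIs, against 53.2 and 62.4% as reported. The cause of each of these shifts was not tested. Against venous cells, the log2 fold change of Socs3 changed sign to 0.069 without scaling, 0.036 without the filter, 0.014 with only these 2 classes fitted, 0.10 with 3000 to 8000 UMIs, 0.25 without the deepest 5% of cells and 0.0083 without cells of another type's RNA, and that of Kdm6b to 0.034 without scaling and 0.00064 without the filter; both are given as a description only. Among the genes named against double-negative cells, Rbp7, Tia1, Edn1, Irf3, H1f0 and Plpp1 each lost the call in 3 of 19 alternatives, and Il6, Itih5, Rsad2, Ccnt2, Cebpb and Cd300lg in 2. With 1 library left out no class has a replicate, so counts of genes have no value there and a single gene has the change of the other library alone, for Il6 between 2.66 and 3.16. Depth limits the rare genes: double-negative cells of library 1 held 174243 UMIs in all.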

Other observations

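Esm1 marks sprouting capillary cells and was no part of the rule. An Esm1 UMI was found in 43.1% of Adamts4/Bcr cells in library 1 (69 of 160, 95% Clopper-Pearson interval 35.3 to 51.2%) and 47.1% in library 2 (603 of 1279, 44.4 to 49.9%), against 0% (0 of 52, up to 6.85%) and 5.06% (9 of 178, 2.34 to 9.38%) of venous cells. Double-negative cells had 34.4% (22.9 to 47.3%) and 42.0% (36.5 to 47.7%), at the lower depth given above. The Adamts4/Bcr and venous cells did not overlap in either library. Gpihbp1/Aqp1 capillary cells had 4.76 and 5.60%.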
